A study of Mus musculus with 8 samples.

Results

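Genes that control entry into S phase were followed in J774A.1 cells, a mouse macrophage line, treated with LPS or with LPS and UDCA. They are the CDK inhibitor genes Cdkn1a, Cdkn1b, Cdkn2c and Cdkn2d, the pocket protein genes Rb1, Rbl1 and Rbl2, and the E2F genes E2f1, E2f4 and E2f8. They were chosen by gene name, 10 of the 55487 genes listed, with earlier results of these data known. The LPS group received LPS (1 μg/mL) and the LPS + UDCA group LPS (1 μg/mL) with UDCA (1 mM), each for 24 h, with 4 libraries per group. LPS, from the outer membrane of Gram-negative bacteria, is a standard stimulus of macrophages, and UDCA is ursodeoxycholic acid, a bile acid. Both groups carry LPS, and cells without LPS were not analysed here. J774A.1 is a tumor-derived line that divides in culture, unlike most tissue macrophages. The labels do not say whether the libraries of a group came from separate cultures. The p-values set group differences against the spread between these libraries, which may be technical.

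CDK inhibitors are small proteins that bind cyclin-dependent kinases. Those of the Cip/Kip family (p21, p27) act on CDK2 complexes and also help to assemble cyclin D complexes, whereas those of the INK4 family (p18, p19) bind CDK4 and CDK6 alone. The kinases phosphorylate the pocket proteins pRB, p107 and p130, which otherwise hold E2F transcription factors and keep their target genes silent. E2F1 is an activator, E2F4 works mainly as a repressor together with p130 or p107, and E2F8 is an atypical repressor that acts without a pocket protein. The p130 and E2F4 pair belongs to the DREAM complex of resting cells, while p107 and E2F1 are themselves made when cells cycle.

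The genes moved in opposite directions. Cdkn1a, Cdkn1b and Rbl2 were higher with UDCA, whereas Cdkn2c, Cdkn2d, Rbl1, E2f1, E2f4 and E2f8 were lower, and Rb1 did not pass the test. Values are TPM, which set the reads of a gene against its length, so levels of different genes can be compared. The listed values were used as deposited and sum to somewhat less than 1000000, to 973190 to 977485 in the LPS libraries and 958918 to 962737 in those with UDCA. The test was limma, a linear model per gene on log2(TPM + 1) with moderated variances, adjusted by Benjamini-Hochberg over the 11796 genes whose TPM averaged 1 or more, and "rose" and "fell" are used for an FDR under 0.05. By that rule 3 of the 10 members rose, against 40.2% of all genes tested, and 6 fell, against 32.3%. The study's thresholds were an FDR under 0.05 and a fold change of at least 2, applied here on log2(TPM + 1). That scale understates the change of low genes, so fewer of them pass. Past both thresholds, 4 members were lower (8.44% of all genes tested) and 0 were higher (8.71%). All libraries of one group lay above all of the other in 9 members, against 66.8% of all genes tested. LPS + UDCA was the upper group in 3 of these (37.0% of all genes) and the lower in 6 (29.9%). The median log2 fold change of the members was -0.51, beside 0.08 for all genes tested. All 10 passed the filter on low values, but E2f8 passed it only through its level in the LPS libraries, so it had to differ between the groups. E2f8 is counted among the 4, the 6 and the 9 above. At a mean minimum of 5 TPM, which leaves out E2f8 and Rb1, 3 members were lower past both thresholds and 5 fell.

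**Figure D1:**
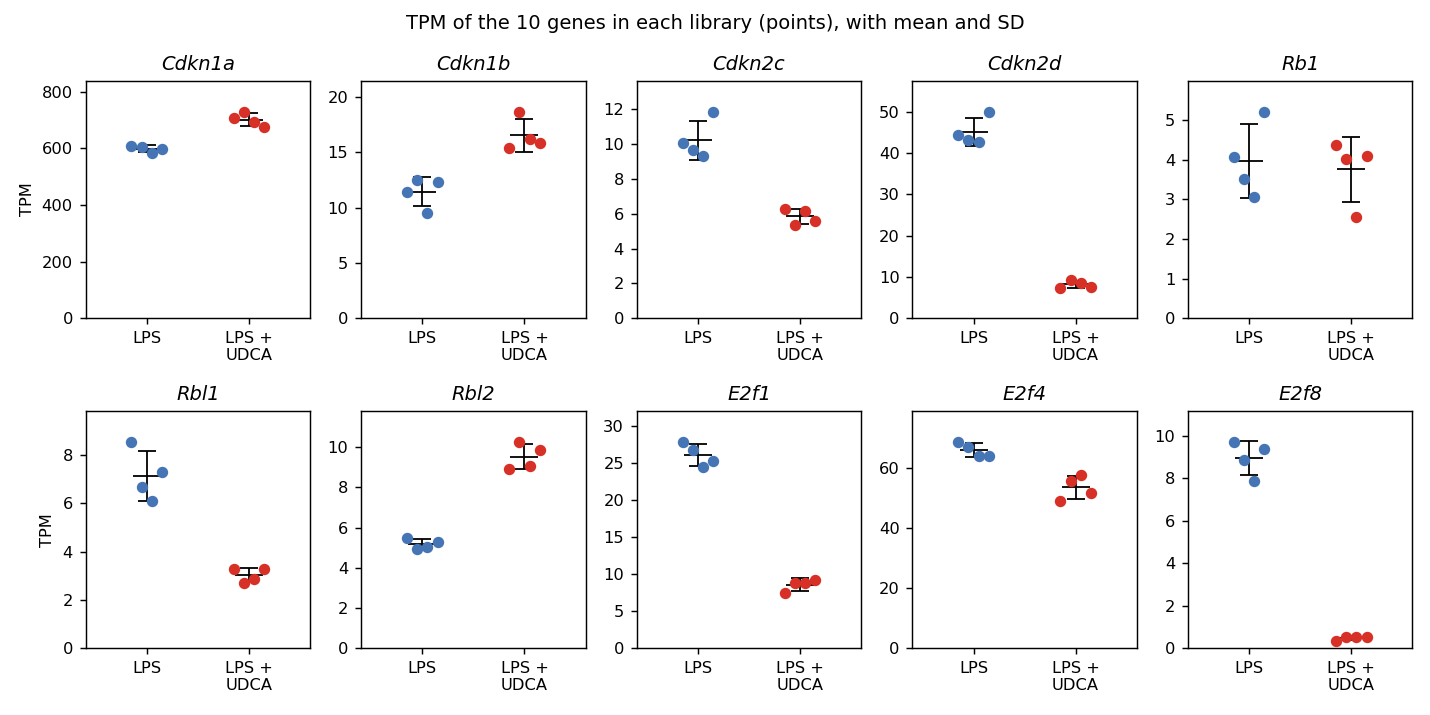
TPM (vertical axes, from 0, one scale per gene) of the 10 genes in the 4 LPS libraries (blue) and the 4 LPS + UDCA libraries (red). Points are libraries, and black bars are the mean and SD. The red points lie above the blue ones for Cdkn1a, Cdkn1b and Rbl2, mix with them for Rb1, and lie below them for the other 6 genes.

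The cells were checked against marker genes. Of 10 macrophage markers, 9 were expressed, whereas Mrc1 stayed at or under 0.01 TPM in every library. Their summed level was 4240 to 4470 TPM in the LPS libraries and 2080 to 2340 TPM in those with UDCA, 4 of the 9 having risen and 5 fallen. The 16 markers of T, B, NK, epithelial, fibroblast, endothelial, erythroid, liver and dendritic cells summed to between 1.42 and 2.14 TPM in the LPS libraries and to between 0.28 and 0.9 TPM in those with UDCA. Of these, 5 were listed at 0 in all libraries, and no single value passed 0.99 TPM. The part of the shifting macrophage markers in the results below was not tested. In RNA from whole cultures, fewer cycling cells and less RNA per cycling cell cannot be told apart.

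Promoter windows from RefSeq (build GRCm38.p6), from 250 bases before to 50 after the transcript start, were matched for 8 of the 10 members. E2f4 and Rb1 had no entry. Stretches of 150 bases just upstream of the start are shown for some members on each side of the result: Rbl1 and E2f8 fell, and Rbl2, Cdkn1b and Cdkn1a rose. Cdkn2c, Cdkn2d and E2f1 fell too and are not shown, and the windows of Cdkn2d and E2f1 held no E2F word. The genes that fell are thus not all represented by the stretches shown. In the first 4, capitals mark matches to an E2F word, which could read TTCCCGC (present in Cdkn2c), TTCGCGC (present in Rbl1), TTGGCGC (present in E2f8) or TTGCCGC (present in no member), or to the CHR word, which reads TTTGAA, searched on both strands. In the stretch of Cdkn1a, capitals mark a match to the p53 half-site pattern and the decamer that follows it.
Rbl1 (chr2:157204535-157204684, minus strand): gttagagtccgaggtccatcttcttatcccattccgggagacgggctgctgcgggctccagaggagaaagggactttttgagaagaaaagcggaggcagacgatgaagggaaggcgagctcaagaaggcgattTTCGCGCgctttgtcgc
E2f8 (chr7:48881597-48881746, minus strand): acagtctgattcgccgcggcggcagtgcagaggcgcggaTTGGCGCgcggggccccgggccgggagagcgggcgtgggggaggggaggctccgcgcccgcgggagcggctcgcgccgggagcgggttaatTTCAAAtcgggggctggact
Rbl2 (chr8:91069907-91070056, plus strand): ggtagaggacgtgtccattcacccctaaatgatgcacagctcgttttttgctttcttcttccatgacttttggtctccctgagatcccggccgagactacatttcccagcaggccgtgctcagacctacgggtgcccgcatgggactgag
Cdkn1b (chr6:134920251-134920400, plus strand): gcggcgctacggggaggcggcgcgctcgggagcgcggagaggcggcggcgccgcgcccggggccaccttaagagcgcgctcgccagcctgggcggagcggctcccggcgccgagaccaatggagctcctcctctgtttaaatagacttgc
Cdkn1a (chr17:29090829-29090978, plus strand): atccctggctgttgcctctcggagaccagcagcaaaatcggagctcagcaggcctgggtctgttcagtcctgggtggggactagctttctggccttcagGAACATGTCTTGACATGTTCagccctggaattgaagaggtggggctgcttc

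Counted in bases from the RefSeq start, the E2F word of Rbl1 begins at -17 and that of E2f8 at -111. E2f8 also holds the CHR word on the opposite strand, at -20. Cdkn2c has the E2F word TTCCCGC in its first window, at -25 from a RefSeq start that lies 433 bases inside the gene as GENCODE draws it. So 3 of the 8 members with a window held an E2F word, beside 9.57% of 32851 mouse windows of the same length, and 2 held the CHR word, beside 17.9%. These 8 members have 10 windows, and a member is counted if any of its windows matches, while the percentages are per window. The windows of Cdkn1a, Cdkn1b, Cdkn2d, E2f1 and Rbl2 held no E2F word, but the RefSeq starts of E2f1 and Cdkn2d lie 466 and 198 bases inside the gene as GENCODE draws it, so their windows miss most or all of the bases before that outer start. The CHR word of Rbl2 begins at -201, outside the stretch shown. In the upstream window of Cdkn1a, the marked p53 half-site begins at -51, and the decamer next to it departs from the pattern at 1 of 10 positions. A further match to the pattern, not marked, begins at -73. Another RefSeq start of Cdkn1a lies 2793 bases inside the gene as GENCODE draws it, and its window held no match to the half-site pattern. The half-site pattern occurs in 8.36% of the windows and in those of 2 members, Cdkn1a and Cdkn2d. A match of letters is a description and does not show that a factor binds there.

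Cdkn1a encodes p21, which p53 and many stress signals induce, and had by far the highest level of the 10 genes. It lies on chromosome 17 from 29090976 to 29100727 (GRCm38, plus strand). Its TPM was 609.34, 605.24, 581.53 and 596.30 in LPS libraries 1 to 4 and 706.80, 728.05, 693.33 and 673.57 in LPS + UDCA libraries 1 to 4. Every LPS + UDCA library was above every LPS library. Mean TPM went from 598 ± 12.3 (SD, n = 4) to 700 ± 22.9, a ratio of 1.17 and a log2 fold change of 0.23 (SE 0.032, limma FDR-adjusted p = 0.00015). The size depends on the scaling, with 0.12 under median-of-ratios scaling and 0.38 under quantile normalization, both still past the FDR threshold. Median-of-ratios scaling moved the median of all genes tested from 0.08 to -0.02, so Cdkn1a stayed above that median in either scaling. Of its 31-base words, 9.78% also occur in another gene, among them the opposite-strand gene AC167363.2, and the strand used in counting is not given in the sources used here.

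Cdkn1b encodes p27, the inhibitor that accumulates in resting cells. It is on chromosome 6 from 134920401 to 134925513 (plus strand). The LPS libraries had 11.44, 12.45, 9.55 and 12.28 TPM and the LPS + UDCA libraries 15.39, 18.64, 16.21 and 15.83 TPM, again without overlap. The ratio of mean TPM was 1.45 and the log2 fold change 0.50 (SE 0.093, limma FDR-adjusted p = 0.00098). By fold change Cdkn1b stood at percentile 73.2 of all genes tested and Cdkn1a at percentile 58.6, so both rises were within the middle of the distribution.

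The INK4 genes moved the other way. Cdkn2d encodes p19 INK4d, whose mRNA is known to vary over the cell cycle, and lies on chromosome 9 from 21288410 to 21291407 (minus strand). It had 44.39, 43.28, 42.75 and 49.99 TPM in the LPS libraries and 7.38, 9.28, 8.62 and 7.64 TPM in those with UDCA. The lowest LPS library was thus far above the highest LPS + UDCA library. The means were 45.1 ± 3.33 and 8.23 ± 0.88 TPM (SD, n = 4), 5.48-fold lower with UDCA, and the log2 fold change was -2.32 (SE 0.081, limma FDR-adjusted p = 2.6e-08). It was the 112th lowest fold change among the 11796 genes tested.

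Cdkn2c encodes p18 INK4c and lies on chromosome 4 from 109660876 to 109667189 (minus strand). It had 10.07, 9.68, 9.34 and 11.85 TPM in the LPS libraries and 6.26, 5.36, 6.18 and 5.60 TPM in those with UDCA. The groups did not overlap, but the log2 fold change of -0.71 (SE 0.087, limma FDR-adjusted p = 6.4e-05) did not reach the 2-fold minimum. The ratio of Cdkn2c to Cdkn2d was 0.218 to 0.237 in the LPS libraries and 0.578 to 0.848 in the LPS + UDCA libraries. For both INK4 genes, 0% of the 31-base words occur in another gene.

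Summed over the 4 inhibitor genes, TPM was 643 to 675 with LPS and 703 to 761 with LPS + UDCA. Cdkn1a made up 90.0% ± 0.683 (SD, n = 4) of that sum with LPS and 95.8% ± 0.186 with LPS + UDCA, while Cdkn2d went from 6.78% ± 0.456 to 1.12% ± 0.0989. Set against the kinase gene Cdk2, which itself fell (log2 fold change -1.30), the ratio of Cdkn1a to Cdk2 mRNA was 15.4 to 16.9 with LPS and 43.8 to 51.7 with LPS + UDCA. These ratios are descriptions of mRNA and carry no test. The other inhibitor genes Cdkn1c (p57), Cdkn2a (p16 and p19 ARF) and Cdkn2b (p15) were listed at 0 in all 8 libraries.

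Rb1 encodes pRB and lies on chromosome 14 from 73183673 to 73325822 (minus strand). It had 4.08, 3.51, 3.05 and 5.21 TPM in the LPS libraries and 4.37, 4.01, 2.56 and 4.10 TPM in those with UDCA. The groups overlapped, and the log2 fold change was -0.06, with a 95% interval from -0.44 to 0.32 (limma FDR-adjusted p = 0.76, exact permutation test p = 0.77). The interval leaves room for a change of the size seen in E2f4 or Cdkn1a. In addition, Rb1 shares exonic sequence with Rcbtb2 and Lpar6 on the opposite strand, and 13.2% of its 31-base words occur in another gene. Rcbtb2 rose from 6.13 to 14.4 TPM (log2 fold change 1.12, limma FDR-adjusted p = 2.1e-05), and its part in the Rb1 value was not tested.

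Rbl1 encodes p107, the pocket protein of cycling cells, and lies on chromosome 2 from 157145893 to 157204534 (minus strand). Its TPM was 8.52, 6.65, 6.11 and 7.27 with LPS and 3.28, 2.72, 2.87 and 3.29 with LPS + UDCA. All LPS + UDCA libraries were below all LPS libraries, and mean TPM was 2.35-fold lower. On the log2(TPM + 1) scale, which understates the change of low genes, the log2 fold change was -1.0 (SE 0.11, limma FDR-adjusted p = 2.6e-05). It sits at the 2-fold minimum and fell short of it, at -0.93, -0.99, -0.97 and -0.98, without LPS replicate 1, LPS replicate 4, LPS + UDCA replicate 2 and LPS + UDCA replicate 3, and at -0.99 when each library was rescaled to 1000000.

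Rbl2 encodes p130, the pocket protein of resting cells, and lies on chromosome 8 from 91070057 to 91123844 (plus strand). It had 5.47, 4.95, 5.03 and 5.27 TPM in the LPS libraries and 8.91, 10.24, 9.08 and 9.87 TPM in those with UDCA. The groups were clear of each other, with means of 5.18 ± 0.236 and 9.52 ± 0.634 TPM (SD, n = 4). The ratio of means was 1.84 and the log2 fold change 0.77 (SE 0.07, limma FDR-adjusted p = 9.3e-06). Aktip overlaps exons of Rbl2 on the opposite strand, and 18.6% of the 31-base words of Rbl2 occur in another gene. Aktip rose too, from 9.79 to 12.9 TPM (log2 fold change 0.36, limma FDR-adjusted p = 0.01), and its part in the Rbl2 value was not tested.

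The summed level of the pocket protein genes overlapped between the groups, while its makeup differed. It averaged 16.3 ± 1.92 TPM (SD, n = 4) in the LPS libraries and 16.3 ± 1.24 TPM in those with UDCA. Rbl1 held 43.8% ± 2.58 of it with LPS and 18.7% ± 1.79 with LPS + UDCA. The share of Rbl2 was 32.0% ± 2.63 and 58.5% ± 3.82, and that of Rb1 24.2% ± 3.53 and 22.9% ± 3.7. Within single libraries the ratio of Rbl2 to Rbl1 was 0.642 to 0.823 with LPS and 2.72 to 3.76 with LPS + UDCA, so the more abundant of the pair was a different gene in each group.

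**Figure D2:**
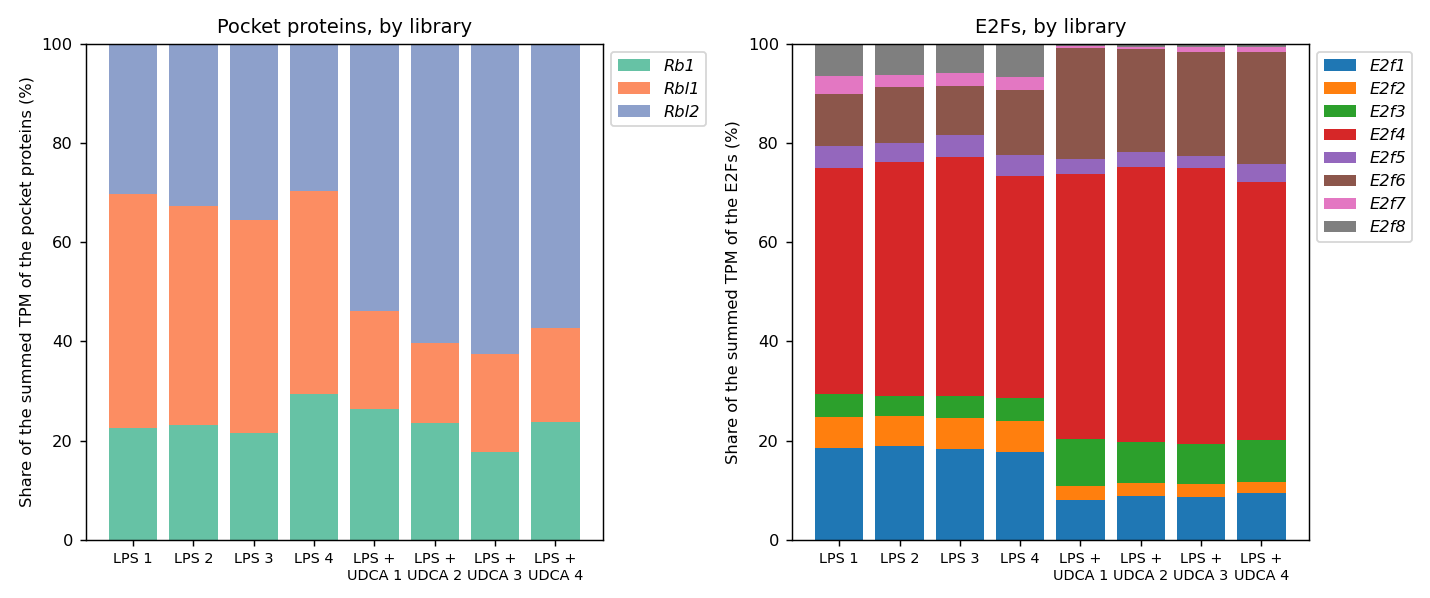
Share (%) of the summed TPM held by each pocket protein gene (left) and each of the 8 E2F genes (right), one stacked bar per library. Rbl2 takes 29.7 to 35.4% of the pocket protein sum in the LPS libraries and 53.8 to 62.6% in the LPS + UDCA libraries, while E2f7 and E2f8 together shrink from a mean of 9.11% of the E2F sum to 1.3%.

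E2f1, on chromosome 2 from 154559407 to 154569892 (minus strand), encodes the activator that drives S phase genes. It had 27.81, 26.79, 24.42 and 25.22 TPM in the LPS libraries and 7.41, 8.88, 8.86 and 9.29 TPM in those with UDCA. Mean TPM was 3.03-fold lower with UDCA, without overlap between the groups (log2 fold change -1.50, SE 0.076, limma FDR-adjusted p = 2.3e-07). The activator E2f2, from 8.85 to 2.53 TPM, fell by 1.48 on the log2 scale, close to E2f1. The remaining activator, E2f3, rose instead, from 6.33 ± 0.558 to 8.40 ± 0.266 TPM (log2 fold change 0.36, limma FDR-adjusted p = 0.0016).

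E2f4, on chromosome 8 from 105297663 to 105305370 (plus strand), encodes the repressor that pairs with p130. Its TPM was 68.44, 66.91, 63.88 and 63.81 with LPS and 49.04, 55.46, 57.57 and 51.66 with LPS + UDCA. The groups did not overlap, and the fall was small (ratio of means 0.813, log2 fold change -0.30, SE 0.056, limma FDR-adjusted p = 0.001). Among the other genes grouped as repressors, E2f5 fell from 6.04 to 2.96 TPM (log2 fold change -0.83) and E2f6, which represses through Polycomb proteins, rose from 16 to 21.3 TPM (0.40). The ratio of E2f4 to E2f1 was 2.46 to 2.62 in the LPS libraries and 5.56 to 6.62 in the LPS + UDCA libraries.

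E2f8, on chromosome 7 from 48866429 to 48881596 (minus strand), changed most of the 10 genes. It had 9.71, 8.88, 7.89 and 9.40 TPM in the LPS libraries and 0.36, 0.53, 0.54 and 0.56 TPM in those with UDCA. Mean TPM was 18.0-fold lower with UDCA. The log2 fold change was -2.73 (SE 0.099) and reached -4.16 with a pseudocount of 0.01, since the pseudocount of 1 holds back genes with low TPM. Because E2f8 passed the filter only through the LPS libraries, its p-value is not given as support. The other atypical gene, E2f7, had a mean of 3.99 ± 0.925 TPM in the LPS libraries and 0.798 ± 0.429 TPM in those with UDCA (log2 fold change -1.49), and it too passed the filter only through the LPS libraries. Of the 31-base words of E2f8, 9.57% occur in another gene. The opposite-strand gene Gm2788 overlaps exons of E2f8 and had 0.15 to 0.52 TPM with LPS and 0.17 to 0.54 TPM with LPS + UDCA. The latter is near the level of E2f8 with LPS + UDCA, and the part of Gm2788 in the E2f8 value was not tested.

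Over all 8 E2F genes the summed level was 133 to 150 TPM in the LPS libraries and 91.7 to 103 TPM in those with UDCA. The activators E2f1 to E2f3 gave 29.0% ± 0.319 (SD, n = 4) of it with LPS and 19.8% ± 0.477 with LPS + UDCA. The repressors E2f4 to E2f6 gave 61.8% ± 0.866 and 78.9% ± 0.512, of which E2f4 alone held 46.4% ± 1.48 and 54.2% ± 1.73. The share of E2f6 went from 11.2% ± 1.38 to 21.7% ± 0.959. Of the 7 other E2F and DP genes, 2 rose and 5 fell, E2f7 among the latter, against 40.2% and 32.3% of all genes tested. Their median log2 fold change was -0.66, and -0.15 at a mean minimum of 5 TPM, where fewer genes are tested. The dimerization partners fell, Tfdp1 from 72.6 to 45.6 TPM (log2 fold change -0.66) and Tfdp2 from 4.91 to 2.84 TPM (-0.63).

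**Figure D3:**
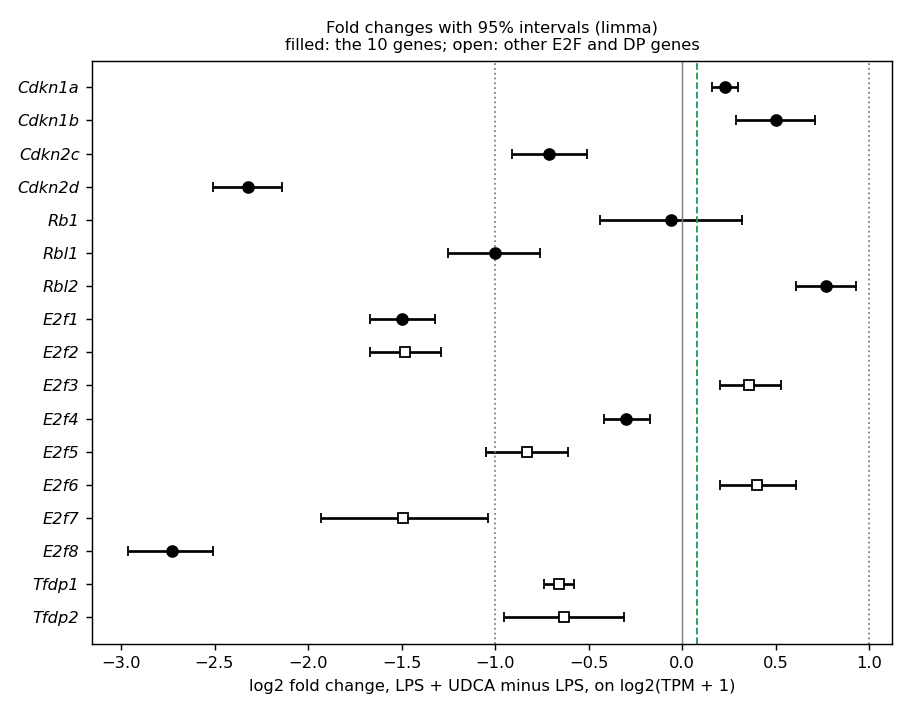
Log2 fold change, LPS + UDCA minus LPS on log2(TPM + 1) (horizontal axis), with 95% intervals from limma, for the 10 genes (filled circles) and the other E2F and DP genes (open squares). Dotted lines mark a 2-fold change and the dashed green line the median of all genes tested, 0.08. E2f8 and Cdkn2d lie farthest to the left, and the interval of Rb1 spans 0.

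In the order of levels, Cdkn1a, E2f4, Cdkn2d and E2f1 led in the LPS libraries, and each was apart from the next. Neighbors among Cdkn1b, Cdkn2c, E2f8 and Rbl1 overlapped in TPM, as did Rbl2 and Rb1. With LPS + UDCA, Cdkn1a and E2f4 still led, followed by Cdkn1b, and Rbl2, E2f1 and Cdkn2d overlapped as neighbors behind them. E2f8 was last, at 0.498 TPM, and apart from Rbl1. The ratio of Cdkn1b to Cdkn2d was 0.223 to 0.288 with LPS and 1.88 to 2.09 with LPS + UDCA, so these inhibitors traded places.

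Genes that work with the members were read from the same fit, and the counts of each list stand beside the 40.2% of all genes tested that rose, the 32.3% that fell and their median of 0.08. The lists were chosen with earlier results of these data known, so their counts are descriptions and not tests. In the MuvB core, which joins p130 and E2F4 in the DREAM complex, and its alternative partner B-MYB, 2 of 6 genes rose and 3 fell, with a median log2 fold change of -0.12. Lin37 (log2 fold change 0.84) and Lin52 (0.62) rose, and Lin9 (-0.55) and Rbbp4 (-0.52) fell. Mybl2, which encodes B-MYB and is known to be silenced by DREAM in resting cells, fell from 30.6 to 3.04 TPM (log2 fold change -2.97, limma FDR-adjusted p = 1.5e-08). Lin54 had a log2 fold change of 0.28 (limma FDR-adjusted p = 0.057).

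Of 24 genes known as E2F targets in DNA replication, 23 fell, 20 of them past both thresholds, against 32.3% and 8.44% of all genes tested. Their median log2 fold change was -1.93. Rrm2, a subunit of ribonucleotide reductase, was the lowest (log2 fold change -3.42), and Pcna, the sliding clamp of DNA polymerase, the highest among those past both thresholds, from 270.0 to 96.0 TPM (-1.48). The one gene that did not fall, named after its values were seen, was Pole, with 30.6 ± 8.57 and 38.7 ± 10.1 TPM (SD, n = 4, limma FDR-adjusted p = 0.19). Among 9 cyclins and kinases of G1 and S phase, 8 fell, 6 of them past both thresholds. The list had its median at -1.26 on the log2 scale. Ccna2, the cyclin of S phase, was the lowest (-3.49) and Ccne2 the highest among those past both thresholds (-1.16), while Cdk6 rose (0.40).

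Of 9 genes for ubiquitin ligases that mark p27, p21 or p130 for degradation, 5 rose and 4 fell, with a median log2 fold change of 0.32. Skp2, the subunit that recognizes p27, fell from 9.40 ± 0.614 to 5.49 ± 0.383 TPM (log2 fold change -0.68), and its cofactor Cks1b fell from 208 to 80.0 TPM (-1.37). Dtl, which recognizes p21 in S phase, fell by 1.70 on the log2 scale. The scaffold gene Cul1 rose from 13.3 to 38.6 TPM (log2 fold change 1.47, limma FDR-adjusted p = 1.4e-06), and Skp1a rose too (0.65). Cul4a (0.50), Cul4b (0.63) and Rbx1 (0.32) rose as well, and Ddb1 fell (-0.41). The ratio of Cdkn1b to Skp2 was 1.11 to 1.33 with LPS and 2.66 to 3.63 with LPS + UDCA.

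Of 12 genes of the p53 pathway, which induces Cdkn1a, 9 rose and 2 fell, and 5 were higher past both thresholds against 8.71% of all genes tested. Trp53inp1 rose most (log2 fold change 1.87) and Mdm2, which encodes the ligase of p53, least among the 5 (1.07). Trp53 itself (-0.25) and Bax, a promoter of cell death, (-0.15) fell, and Sesn1 did not pass the test (0.17). With median-of-ratios scaling, 3 of the 12 were higher past both thresholds. The median of the list was 0.72. Of 12 other regulators of CDK inhibitor transcription, 6 rose and 4 fell, with a median log2 fold change of 0.10, close to that of all genes tested. Those past both thresholds were Myc, a repressor of Cdkn1a and Cdkn1b, which fell from 69.4 to 28.1 TPM (-1.27), and Cebpb, a transcription factor of activated macrophages, which fell from 113 ± 49.1 to 44.4 ± 8.33 TPM (SD, n = 4, log2 fold change -1.24). Smad3 (-0.94) and Cebpa (-0.60), known as activators of CDK inhibitor genes or their products, also fell. Foxo1 (0.48), Foxo3 (0.53), Foxo4 (0.26), Smad4 (0.54), Sp1 (0.54) and Zbtb17 (0.35) rose, and each stayed under 2-fold. Klf4 and Klf6 had log2 fold changes of -0.06 and -0.09 and did not pass the test. Known activators stood among both the higher and the lower genes, and the part of these regulators in the levels of the CDK inhibitor genes was not tested. Of 9 chromatin factors known to bind pRB or its relatives, 4 rose and 3 fell, shares near those of all genes tested, and the median log2 fold change was 0.12. Among those past both thresholds, Arid4b was the highest (1.06, under 2-fold with median-of-ratios scaling, quantile normalization or without LPS + UDCA replicate 4) and Suv39h1 the lowest (-1.50). The histone deacetylase gene Hdac1 fell from 99.6 to 36.7 TPM (-1.42), while Hdac2 rose (0.35).

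**Figure D4:**
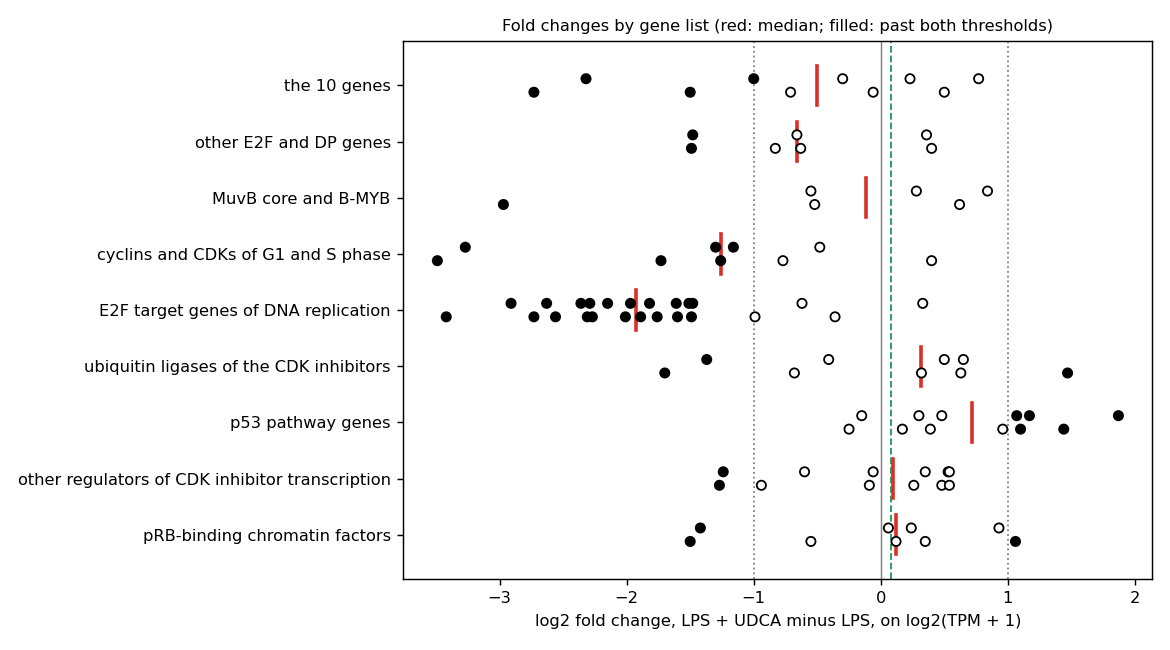
Log2 fold change, LPS + UDCA minus LPS on log2(TPM + 1) (horizontal axis), of each tested gene (points) in the 10 genes and in 8 lists of genes around them. Filled points are past both thresholds, red bars are list medians, and the dashed green line is the median of all genes tested. The E2F target list has its median at -1.93 and the p53 list at 0.72.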

How the data were processed

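Total RNA of J774A.1 cells was made into Illumina TruSeq libraries and sequenced on a commercial platform. The authors deposited TPM per gene, 1 column per library, with 2 decimals. The submitters' processing notes name Bowtie 0.12.2, mm10 and GRCm38. The counter, annotation and strand setting are not given in the sources used here. The columns summed to 973190 to 977485 TPM (LPS) and 958918 to 962737 TPM (LPS + UDCA). TPM keep no read depth, so the depth is unknown, and no counting interval was given.

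Groups and replicate numbers came from the labels. Genes whose TPM averaged 1 or more over the 8 libraries were fitted on log2(TPM + 1) with limma 3.58.1 (R 4.3.3, moderated variances with a trend) and adjusted by Benjamini-Hochberg over all genes tested. Fold changes are on the log2(TPM + 1) scale, which understates the change of low genes. Single genes were also tested by a 2-sided exact permutation test, whose smallest p is 0.029. Positions came from GENCODE (GRCm38) and promoters from RefSeq (GRCm38.p6). Alternatives changed the scaling, filter, pseudocount, variance trend, block, fold minimum or left out 1 library.

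The members and gene lists were chosen with earlier results of these data known. Named genes were the 10 members, the highest and lowest of each list among those past both thresholds and, for lists of at most 12 genes, others needed to give the count.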

Additional observations from a re-analysis of the deposited data

Results flagged for a closer look

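Of 20 groups of 4 values checked (10 genes in each treatment), 1 had a library far from the others. E2f8 in LPS + UDCA library 1 was at 0.36 TPM, while the others lay between 0.53 and 0.56 TPM. Its gap to the nearest library was 0.85 of the range of the group, beyond Dixon's 95% critical value. Chance gives such a gap in about 1 in 20 groups.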

How the results depend on the processing

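Direction and FDR held for the 9 members that passed the test under every alternative in which they were tested. E2f8 and Rb1 were not tested at a mean minimum of 5 TPM. Past both thresholds, 4 members were lower and 0 higher, with 3 to 4 lower and 0 to 0 higher over leaving out 1 library and, without a fold minimum, 6 lower and 3 higher. Rb1 (-0.15 to 0.07 over leaving out 1 library) changed sign, to 0.05 without LPS replicate 4 and to 0.07 without LPS + UDCA replicate 3. Over all genes 1028 were higher and 995 lower, with 971 to 1130 and 964 to 1031 over leaving out 1 library, 683 higher at a mean minimum of 5 TPM, and 4741 higher and 3807 lower without a fold minimum. With a pseudocount of 0.01, 1489 genes were higher and 1266 lower. In the other gene lists 7 genes were higher and 35 lower, with 6 to 8 and 35 to 37 over leaving out 1 library, and 4 were higher under median-of-ratios scaling. At a mean minimum of 5 TPM, where fewer genes are tested, the median log2 fold change of the other E2F and DP genes moved to -0.15. That of the MuvB list turned to 0.05 at the same minimum, and that of the other regulators to -0.01 under quantile normalization, whose cause was not tested. Same-numbered libraries deviated together with correlations of -0.035 to 0.15, beside -0.14 to 0.16 for libraries of different numbers. Of 8 libraries, 5 correlated best with their own number. These values do not settle whether the numbers are pairs, and the main fit did not treat them as pairs. With the replicate block 1034 genes were higher and 1000 lower, and 4 members lower and 0 higher, with no member's call changed.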

Other observations

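Cdkn2a and Cdkn2b, adjacent on mouse chromosome 4, were listed at 0 TPM in all 8 libraries. Within 500000 bases of them, Mtap, which encodes an enzyme of methionine salvage, had 15.29 to 23.85 TPM. Dmrta1, on the other side, had 0 to 0.02 TPM.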
